A study of Mus musculus with 18 samples.

Results

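The endoplasmic reticulum stress and folding genes described here are 32 genes for chaperones, folding enzymes, degradation factors and stress signalling proteins of the endoplasmic reticulum (ER). They were chosen by gene symbol, with earlier results of these data known. The 32 symbols matched 33 of the 54532 rows of the deposited count table. Ddit3 held a second row, a gene model of 105 bases with 0 counts in all 18 libraries, which was not tested. All 32 genes passed the filter on low counts, as did 18291 genes in all.

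RNA of mouse nasal mucosa was sequenced in 18 libraries, with 6 apiece for CON, CRS and C10. CRS mice are a model of chronic rhinosinusitis: papain, a plant protease, was given into the nose at 20 µg in 20 µL on days 0 to 2 and again on days 7 to 11. C10 mice are taken to have had the same papain, because the protocol assigns the compound to CRS mice, together with C10 (10 mg/mL, 10 µL in each side of the nose, daily over 10 days from the opening papain dose), which the series title names an APE1 inhibitor. APE1 repairs DNA and has a redox function. What CON mice received, what vehicle CRS mice received, and the strain, age, sex and hour of collection are not given, and the labels do not tie libraries to separate mice. P-values therefore measure the spread between libraries, which may be technical.

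Proteins made for secretion or for membranes fold inside the ER, and nasal glands, mucous cells and plasma cells depend on this capacity. When unfolded proteins build up, the sensors IRE1 (gene Ern1), PERK (Eif2ak3) and ATF6 (Atf6) start the unfolded protein response. IRE1 splices the Xbp1 transcript, ATF6 is cut to release a transcription factor, and PERK slows translation and favours ATF4, which acts upstream of CHOP (Ddit3), Trib3, Chac1 and Asns. Targets of ATF6 and XBP1 are mainly chaperones and factors of ER-associated degradation, the route by which misfolded proteins leave the ER for the proteasome.

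Total counts were 16510920 to 18433866 per CON library, 16531779 to 17523368 per CRS library and 15883573 to 18128186 per C10 library. The label of nasal mucosa was matched by its markers: the 12 genes listed for mature olfactory neurons had summed levels of 3258 to 9786 CPM (counts scaled to library size) and the 15 listed nasal gland genes found in the table, of which 11 were tested, had 21739 to 141391 CPM. Bone and cartilage genes, of tissue under the mucosa, summed to 1427 to 10327 CPM. Libraries of a group stood apart in composition: mean log2 CPM of the nasal gland list was 8.76 for CRS 1, where the other CRS libraries had 11.67 to 13.08. The neutrophil list was at 1.59 for CRS 2 and 2.71 for CRS 5, where the other CRS libraries had 4.05 to 5.81. In bulk tissue, fewer cells of a type and less RNA per cell cannot be told apart.

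A known element of the unfolded protein response recurs in the promoters of some of these genes. Promoter windows of RefSeq (build GRCm38.p6), from 250 bases before to 50 after the start of transcription, were matched for 28 of the 32 genes. The ER stress response element, bound by ATF6 with the factor NF-Y and by XBP1, was searched on both strands as CCAAT, then 9 bases of any kind, then CCACG. It was found in the windows of 9 of the 28 genes (32.1%), against 37 of 27025 genes with a window of this length (0.137%). Both the element and the genes were taken as known parts of the same response, so these shares are a description and not a test. The matches are shown with 6 bases on each side because they are the feature that recurs among these genes; capitals mark the defined bases, and each is read along the strand on which it matches.
Hspa5 (chr2:34772019-34772049, + strand): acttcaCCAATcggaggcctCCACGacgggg
Hsp90b1, nearer the start (chr10:86705527-86705557, + strand): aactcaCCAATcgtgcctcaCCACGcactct
Hsp90b1, farther from the start (chr10:86705632-86705662, - strand): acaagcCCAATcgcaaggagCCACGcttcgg
Calr (chr8:84847069-84847099, + strand): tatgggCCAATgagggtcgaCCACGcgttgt
Canx (chr11:50325794-50325824, - strand): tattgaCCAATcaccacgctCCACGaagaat
Pdia6 (chr12:17266485-17266515, + strand): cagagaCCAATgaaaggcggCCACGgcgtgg
Dnajc3 (chr14:118937821-118937851, + strand): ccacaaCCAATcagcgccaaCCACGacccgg
Creld2 (chr15:88819514-88819544, - strand): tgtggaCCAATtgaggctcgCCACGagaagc
Derl3 (chr10:75893236-75893266, - strand): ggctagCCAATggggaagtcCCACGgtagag
Syvn1 (chr19:6046526-6046556, + strand): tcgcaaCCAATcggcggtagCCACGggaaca
Distances from the start site to the centre of the match ran from 35 bases before it in Syvn1 to 203 bases before it in Hsp90b1, the only gene with 2 matches among the 28. The next stretch is the upstream 250 bases of Hspa5, which encodes BiP, the main chaperone of the ER lumen, with its match in capitals.
Hspa5 (chr2:34771840-34772089, + strand): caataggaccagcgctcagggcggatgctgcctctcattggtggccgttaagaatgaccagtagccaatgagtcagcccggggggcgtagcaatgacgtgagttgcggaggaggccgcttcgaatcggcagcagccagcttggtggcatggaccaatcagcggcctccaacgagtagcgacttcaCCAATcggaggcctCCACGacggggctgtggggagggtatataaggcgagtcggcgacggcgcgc

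A second form of the element, ATTGG, then 1 base of any kind, then CCACG, was found on either strand in 2 of the 28 genes and in 0.0444% of all genes with a window. Its matches were these, again with 6 bases on each side and the defined bases in capitals.
Dnajb11 (chr16:22857846-22857868, + strand): gcggcgATTGGcCCACGcctggc
Herpud1 (chr8:94386371-94386393, + strand): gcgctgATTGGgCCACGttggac
The match in Dnajb11 lies 7 to 17 bases after the start site. The core CCACG alone, which both forms contain, was present in 23 of the 28 genes (82.1%) and in 35.5% of all genes. An XBP1 site, written TGACG followed directly by TGG, was present in 0 of the 28 and in 0.714% of all genes. The composite element of ATF4 and C/EBP factors, TTGC followed directly by ATCA, was found in 2 of the 28 and in 1.03% of all genes; its matches are shown in capitals.
Herpud1 (chr8:94386311-94386330, + strand): ggcgggTTGCATCAgcccgc
Chac1 (chr2:119351043-119351062, + strand): ctgccgTTGCATCActcctg
As above, the shares of genes with a match are a description only. A match describes these letters in this window and is not a measured binding site. The map of element positions shows where each match lies.

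**Figure D1:**
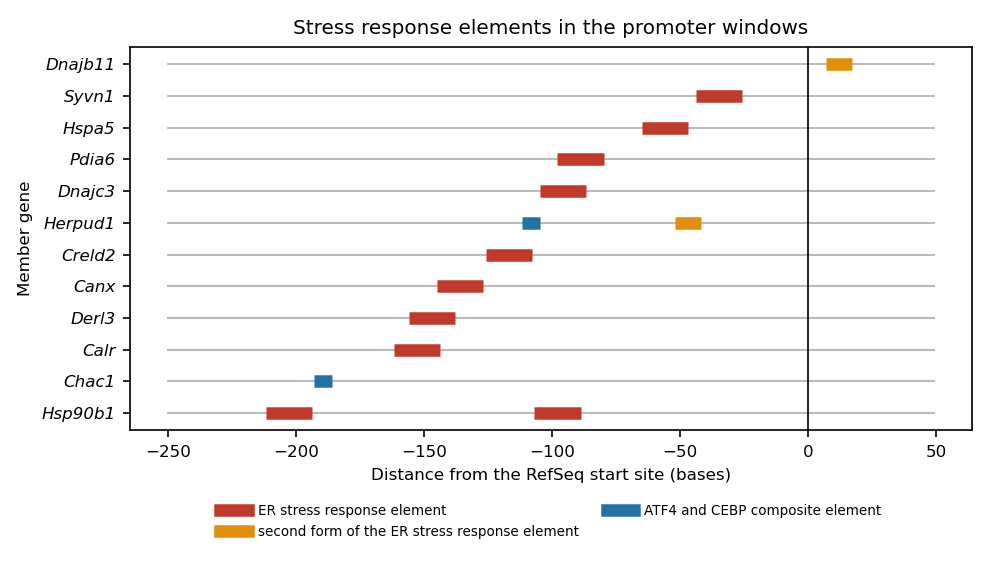
Positions of the sequence matches in the promoter windows of 12 genes, in bases from the RefSeq start site (x axis); each row is a gene and each coloured block a match. Matches to the ER stress response element lie between 212 and 26 bases before the start, and the second form lies just after the start in Dnajb11.

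Together the 32 genes took 0.603% to 0.724% of all counts in a library, with group medians of 0.682% in CON, 0.635% in CRS and 0.654% in C10, and the ranges of the groups overlapped. Per length, as mean deposited FPKM (counts scaled by gene length and library size) over the 18 libraries, the highest level was that of P4hb at 281.5, the gene of protein disulfide isomerase. Calr (200.5 FPKM, calreticulin, a lectin chaperone), Hspa5 (163 FPKM), Pdia3 (160 FPKM, a disulfide isomerase that works with the lectin chaperones) and Xbp1 (125.6 FPKM) followed. Hspa5 and Pdia3 did not differ beyond their spread: within CON they stood at 173 ± 12.0 and 162 ± 12.6 FPKM (SD, n = 6). The lowest levels were those of Chac1 (2.28 FPKM), an enzyme that breaks down glutathione, Derl2 (6.69 FPKM) and Trib3 (7.41 FPKM), a pseudokinase downstream of ATF4 and CHOP.

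Mean levels in CON, CRS and C10, in this order and as CPM ± SD (n = 6 each), lay close together for most genes. Hsp90b1, the gene of the chaperone GRP94, had 468 ± 21.6, 478 ± 40.6 and 462 ± 36.7. Hyou1, a large chaperone of the lumen, had 195 ± 17.1, 179 ± 27.4 and 178 ± 5.11. The ranges of the groups overlapped for both. Among the disulfide isomerases P4hb had 830.3 ± 55.3, 816 ± 98.0 and 792 ± 68.2. Pdia3 had 513 ± 39.4, 510.0 ± 41.5 and 500.0 ± 27.4, so that the groups were within 1 SD of each other for both. Pdia6 had 240.1 ± 17.4, 249 ± 25.2 and 228 ± 18.7. Pdia4 had 130.1 ± 21.5, 117 ± 30.3 and 118 ± 12.6. Pdia4 had the widest spread of the 4 isomerases in every group, relative to its mean.

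Dnajb11 had 129 ± 6.40, 132 ± 5.95 and 127 ± 6.95 CPM, in the same order. Dnajc3, a co-chaperone that also restrains PERK, had 269 ± 12.4, 246 ± 32.9 and 256 ± 20.0. Sdf2l1, a partner of Dnajb11, had 56.4 ± 11.0, 49.8 ± 8.68 and 50.4 ± 7.01. The groups overlapped for all 3 genes. Creld2, a protein of the lumen that stressed cells can secrete, had 57.0 ± 6.78, 58.0 ± 4.89 and 52.6 ± 5.88, and Manf, another, had 119.7 ± 8.76, 130.2 ± 17.1 and 121 ± 17.0, again with overlap. Syvn1, the ubiquitin ligase of ER-associated degradation, had 72.4 ± 6.80, 75.7 ± 9.78 and 69.1 ± 7.97. Its partner Sel1l had 337 ± 36.2, 321 ± 48.9 and 318 ± 16.8. The groups overlapped for both. Edem1 had 118 ± 28.7, 99.5 ± 44.2 and 105 ± 31.2. Derl3, a degradation factor of secretory cells, had 25.9 ± 5.77, 27.0 ± 13.6 and 30.4 ± 9.26. In CRS the SDs of Edem1 and Derl3 were 44.4% and 50.5% of their means, the widest of the 32 genes. Ern1 had 66.8 ± 6.03, 59.1 ± 11.8 and 64.5 ± 12.2. Asns had 70.7 ± 13.1, 75.7 ± 21.3 and 70.1 ± 12.4. Ppp1r15a had 67.9 ± 14.7, 67.1 ± 16.4 and 64.6 ± 14.4, again with overlapping groups.

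Levels varied little between libraries. The median SD of log2 CPM over the 18 libraries was 0.167 for the 32 genes, against 0.294 for all genes tested. By mean FPKM, the 32 genes lay from percentile 34.1 (Chac1) to 99.4 (P4hb) of all genes tested. Dnajb11, ranked 16 of the 32, lay at 94.1. Counting error is relatively smaller at higher levels, and genes of matched level were not compared. The steadiest was Dnajb11, a co-chaperone of BiP, whose highest library had 1.19 times the CPM of its lowest. The most variable were Trib3 (SD 0.47 on the log2 scale), Edem1 (0.47), Derl3 (0.45), Chac1 (0.42) and Ddit3 (0.34). CRS 3 was the highest of all 18 libraries for 10 of the 32 genes, and its genes lay 0.24 above their overall means on the log2 scale. Its scaling factor (TMM) of 0.887 was the lowest of the 18 and raises its CPM. Of its raw counts the 32 genes took 0.676%, against a CON median of 0.682%. The nasal gland list of CRS 3 was the highest in CRS, at 13.08 mean log2 CPM. The parts of scaling and of gland content in these levels were not tested.

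**Figure D2:**
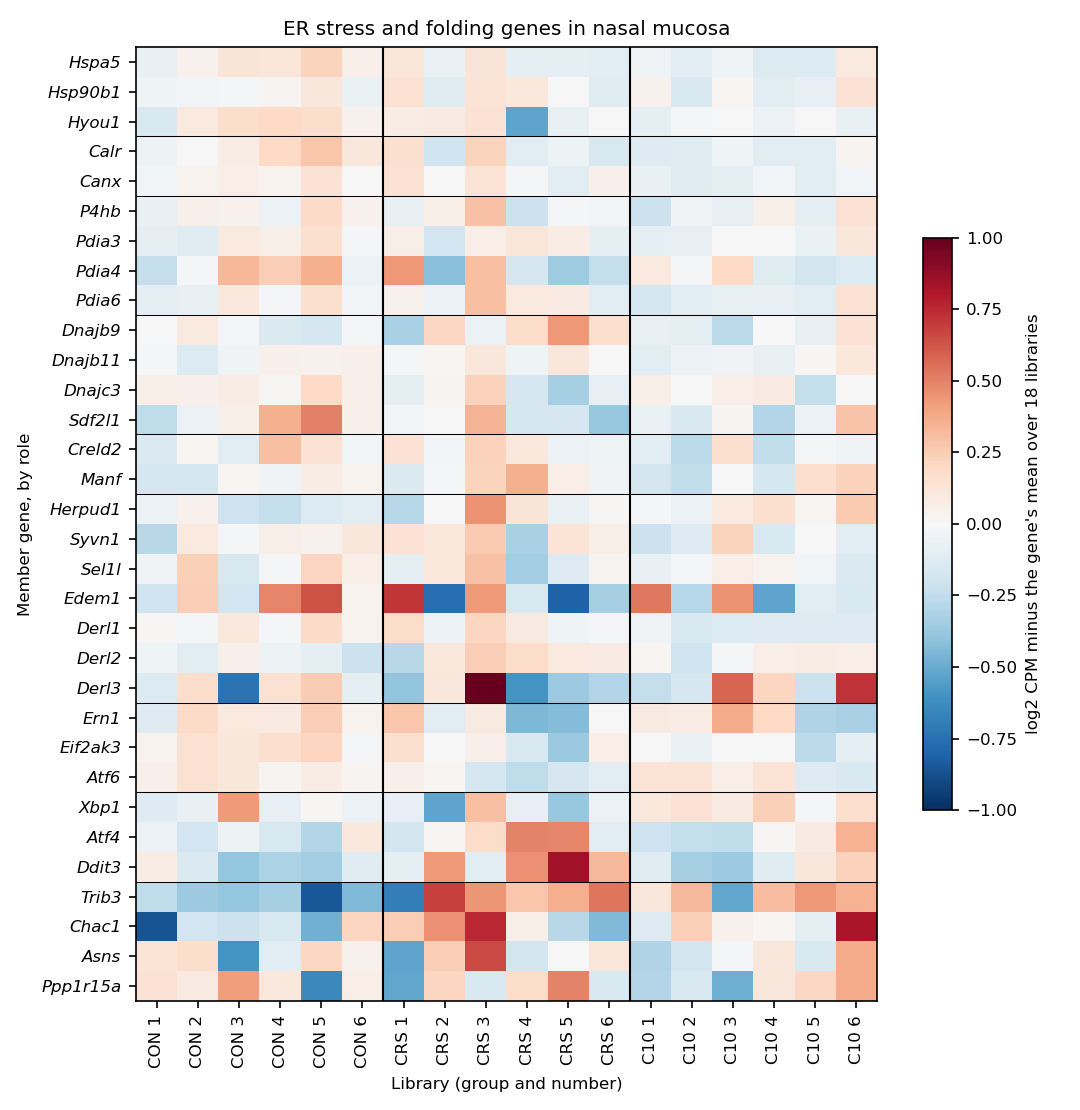
Heatmap of the 32 genes (rows, grouped by role) in the 18 libraries (columns, group and number); colour is log2 CPM minus the gene's mean over the 18 libraries. Chaperones and isomerases at the top differ little between libraries, Trib3 is low in CON and CRS 1, and CRS 3 is high for many genes.

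CRS was compared with CON to ask what papain did to these genes. With edgeR's quasi-likelihood test and Benjamini-Hochberg adjustment over all 18291 genes, 0 of the 32 passed an adjusted p of 0.05, where 1 gene in all (0.00547%) did; 2 of the 32 (6.25%) passed with DESeq2, where 1.08% of all genes did, and 2 with limma-voom, where 5.14% did. At an unadjusted p under 0.05, 4 of the 32 were counted, Trib3, Ddit3 and Atf4 above and Atf6 below CON, a share of 12.5% against 14.0% of all genes. The median log2 fold change was 0.004 over the 32 genes and 0.004 over all genes, with 16 genes above 0 and 16 below. For 27 of the 32 the 95% interval of the fold change lay within 1.5-fold in either direction, against 55.3% of all genes. Levels were not matched here or in the comparisons below, and most of the 32 genes lie high among all genes tested.

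The luminal chaperones stood close to CON. Hspa5 had a lowest, median and highest level of 659, 737 and 809 CPM in CON and of 642, 655 and 759 CPM in CRS. The ranges overlapped broadly, with CRS 1 and CRS 3 at the upper end. Its log2 fold change was -0.10 ± 0.08 (SE; 95% interval -0.26 to 0.05; edgeR adjusted p = 0.552). Hsp90b1 gave 0.03 ± 0.07, and Hyou1 gave -0.13 ± 0.09 with edgeR adjusted p-values of 0.867 and 0.546. The lectin chaperones gave -0.12 (Calr) and 0.00 (Canx, calnexin) on the same scale, and the 4 disulfide isomerases ran from -0.16 (Pdia4) to 0.06 (Pdia6). The co-chaperones ran from -0.18 (Sdf2l1) to 0.16 (Dnajb9), and the secreted or luminal stress proteins Creld2 and Manf gave 0.02 and 0.12.

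Among the 7 factors of ER-associated degradation, log2 fold changes ran from -0.25 (Edem1, a lectin that sends glycoproteins to degradation) to 0.17 (Herpud1, a scaffold of the degradation complex). Derl2, a membrane protein of that complex, had levels of 46.6, 51.5 and 56.2 CPM in CON (lowest, median, highest) and 44.7, 58.1 and 64.1 CPM in CRS. The 5 CRS libraries other than CRS 1 lay above all CON libraries. Its log2 fold change was 0.16 ± 0.08 (edgeR adjusted p = 0.377).

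The stress sensors gave values below 0 and the factors ATF4 and CHOP values above 0. Atf6 had 124, 127 and 135 CPM in CON and 102, 110 and 126 CPM in CRS. All 6 CRS libraries lay under the CON median, and CRS 1, at 126 CPM, lay inside the CON range. Its log2 fold change was -0.18 ± 0.07 (edgeR adjusted p = 0.281). Eif2ak3 and Ern1 gave -0.14 ± 0.08 and -0.18 ± 0.13 (edgeR adjusted p = 0.429 and 0.565). Xbp1 gave -0.14 ± 0.12. Without CRS 2 and CRS 5, Xbp1 gave 0.01, and Edem1 gave 0.03. For Xbp1, counts are per gene, so its spliced and unspliced forms were not separated.

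Atf4, the factor favoured when PERK slows translation, had 128, 145 and 169 CPM in CON and 138, 168 and 221 CPM in CRS (lowest, median, highest). CRS 3, 4 and 5 lay above all CON libraries, and CRS 1, 2 and 6 lay inside their range. The log2 fold change was 0.28 ± 0.13 (edgeR adjusted p = 0.347).

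Ddit3, the gene of the transcription factor CHOP, lies on chromosome 10 (127290774 to 127296288, + strand, in the coordinates of the deposited table). It had 17.8, 19.9 and 24.6 CPM in CON and 21.6, 30.3 and 41.9 CPM in CRS. CRS 2, 4, 5 and 6 lay above all CON libraries, and CRS 1 and CRS 3 lay inside their range. CRS was 1.46-fold CON (log2 fold change 0.55 ± 0.15, 95% interval 0.23 to 0.86; edgeR adjusted p = 0.206). Ddit3 passed with DESeq2 (0.55, adjusted p = 0.0462), with limma-voom (0.52, adjusted p = 0.0245) and with edgeR without CRS 1 (0.62, adjusted p = 0.0273); without CRS 2 and CRS 5 its edgeR value was 0.38 (adjusted p = 0.332). The fit without CRS 1 called 994 genes in all (5.39%), and limma-voom 940. The gene overlaps Mars, and the protocol does not state that strand was kept, so reads of the overlap cannot be separated.

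Trib3 lies on chromosome 2 (152337422 to 152344032, - strand). It had 8.34, 11.6 and 12.7 CPM in CON and 9.30, 20.0 and 24.4 CPM in CRS. The CRS libraries other than CRS 1 all lay above the highest CON library, and CRS 1 was the lowest of its group. CRS was 1.69-fold CON (log2 fold change 0.76 ± 0.19, 95% interval 0.35 to 1.16; edgeR adjusted p = 0.206), the largest difference among the 32 genes in this comparison. It passed with DESeq2 (0.76, adjusted p = 0.0246), with limma-voom (0.84, adjusted p = 0.0148) and with edgeR without CRS 1 (0.90, adjusted p = 0.00974). These were the only 3 of 31 fits, edgeR on all 18 libraries included, in which Trib3 passed in this comparison. Over the 31 fits its log2 fold change ran from 0.58 to 0.90.

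Of the other targets downstream of ATF4, Chac1 had 1.93, 3.13 and 4.21 CPM in CON and 2.63, 4.04 and 6.19 CPM in CRS. The groups overlapped over most of their ranges, and the log2 fold change was 0.45 ± 0.23 (edgeR adjusted p = 0.397). Asns, which makes asparagine, gave 0.10 ± 0.17 and Ppp1r15a, whose product GADD34 restarts translation, gave -0.02 ± 0.18 (edgeR adjusted p = 0.820 and 0.977). Within the ATF4 and CHOP targets the log2 fold changes ran from -0.02 to 0.76.

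The upstream 250 bases of Ddit3 and Trib3 are shown because these genes gave the largest fitted differences; neither window holds a match to any of the elements above, the core included, so that no base is in capitals.
Ddit3 (chr10:127290543-127290792, + strand): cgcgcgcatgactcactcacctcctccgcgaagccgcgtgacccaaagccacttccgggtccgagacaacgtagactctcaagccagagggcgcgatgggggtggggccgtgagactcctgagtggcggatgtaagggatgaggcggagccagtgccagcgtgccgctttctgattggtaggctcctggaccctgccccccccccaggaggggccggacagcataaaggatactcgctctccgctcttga
Trib3 (chr2:152344061-152344310, - strand): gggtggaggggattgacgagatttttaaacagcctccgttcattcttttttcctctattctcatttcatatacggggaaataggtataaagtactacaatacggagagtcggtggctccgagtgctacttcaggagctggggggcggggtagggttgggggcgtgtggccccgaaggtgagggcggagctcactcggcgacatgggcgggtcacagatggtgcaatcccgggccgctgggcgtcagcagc
The 11 genes with an exact match to either form of the ER stress response element gave log2 fold changes of -0.13 to 0.17 in this comparison (median 0.03, 7 above 0). The 17 whose windows hold no exact match to either form, Ddit3 among them, gave -0.25 to 0.76 (median -0.02, 7 above 0). With so few genes the sets are given as a description.

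**Figure D3:**
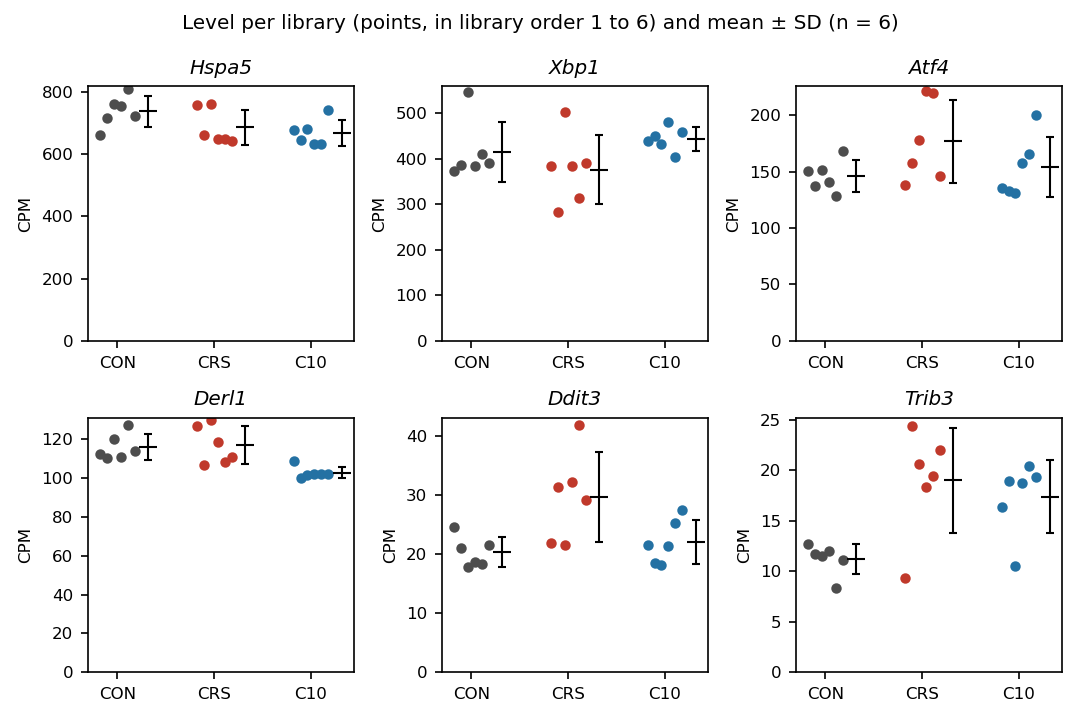
CPM of 6 genes in each library (points, in library order within a group) with the group mean and SD (n = 6); the y axes start at 0. Hspa5 overlaps across groups, Ddit3 and Trib3 are higher in most CRS libraries than in CON, and the C10 libraries of Derl1 lie at 100 to 108 CPM.

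C10 was compared with CRS to ask what the compound did in papain-treated mice. It uses the same CRS libraries as the comparison above, so values in both are set side by side only. By edgeR 0 of the 32 genes passed, where 15 genes in all (0.0820%) did; 0 passed with DESeq2, where 1.91% of all genes did, and 1 (3.12%) with limma-voom, where 3.00% did. At an unadjusted p under 0.05, 2 of the 32 (6.25%) were counted, Derl1 and Ddit3, both lower in C10, against 13.2% of all genes. The median log2 fold change was -0.05 over the 32 genes and 0.01 over all genes. Of the 32, 9 genes (28.1%) lay above 0 and 23 below, where 51.7% of all genes lay above 0. The interval lay within 1.5-fold for 29 of the 32, against 56.9% of all genes.

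Derl1, a membrane protein of the degradation complex on chromosome 15 (57869502 to 57892448, - strand), had 107, 114 and 130 CPM in CRS (lowest, median, highest) and 100.1, 102 and 108 CPM in C10. Of the 6 C10 libraries 5 lay under all CRS libraries, and C10 1 lay within their range. The log2 fold change was -0.18 ± 0.06, a fold of 0.880 (edgeR adjusted p = 0.195).

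Ddit3 had 18.1, 21.5 and 27.5 CPM in C10. All C10 libraries lay under the CRS median, and the ranges overlapped between 21.6 and 27.5 CPM. The log2 fold change against CRS was -0.43 ± 0.15, a fold of 0.743 (edgeR adjusted p = 0.223). It passed with limma-voom (-0.49, adjusted p = 0.0386) and with the olfactory neuron level as a covariate in edgeR (-0.45, adjusted p = 0.0269), a fit that called 2.76% of all genes, and it was -0.27 (adjusted p = 0.338) without CRS 2 and CRS 5. Trib3 gave -0.13 ± 0.19 (95% interval -0.53 to 0.27; edgeR adjusted p = 0.841) and Atf4 -0.20 ± 0.13 (adjusted p = 0.538) in the same edgeR fit.

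The other genes of smallest p were Atf6, Xbp1, Canx and Dnajb9. Atf6 had 109, 130 and 134 CPM in C10 and a log2 fold change of 0.14 ± 0.07 (edgeR adjusted p = 0.410). Xbp1 had 282, 384 and 502 CPM in CRS and 404, 444 and 481 CPM in C10, all C10 libraries above the CRS median and CRS 3 above all of C10. Its log2 fold change of 0.24 ± 0.12 (edgeR adjusted p = 0.413) was 0.15 without CRS 2 and 0.08 without CRS 2 and CRS 5, the lowest CRS libraries. Canx had 324, 356 and 388 CPM in CRS and 322, 330 and 344 CPM in C10, with a log2 fold change of -0.11 ± 0.06 (edgeR adjusted p = 0.436). Dnajb9, a co-chaperone that restrains IRE1, had 85.2, 121 and 144 CPM in CRS and 88.8, 102 and 118 CPM in C10, with a log2 fold change of -0.17 ± 0.10 (edgeR adjusted p = 0.485). The C10 ranges of Canx and Dnajb9 lay largely inside those of CRS.

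By role, the 3 luminal chaperones gave -0.05 to -0.01, the 4 disulfide isomerases -0.13 to 0.02, the 7 degradation factors -0.18 to 0.17 and the 4 targets of ATF4 and CHOP -0.13 to 0.00 on the log2 scale. The genes with an exact match to either form of the ER stress response element gave a median of -0.06, and those without gave a median of -0.04.

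**Figure D4:**
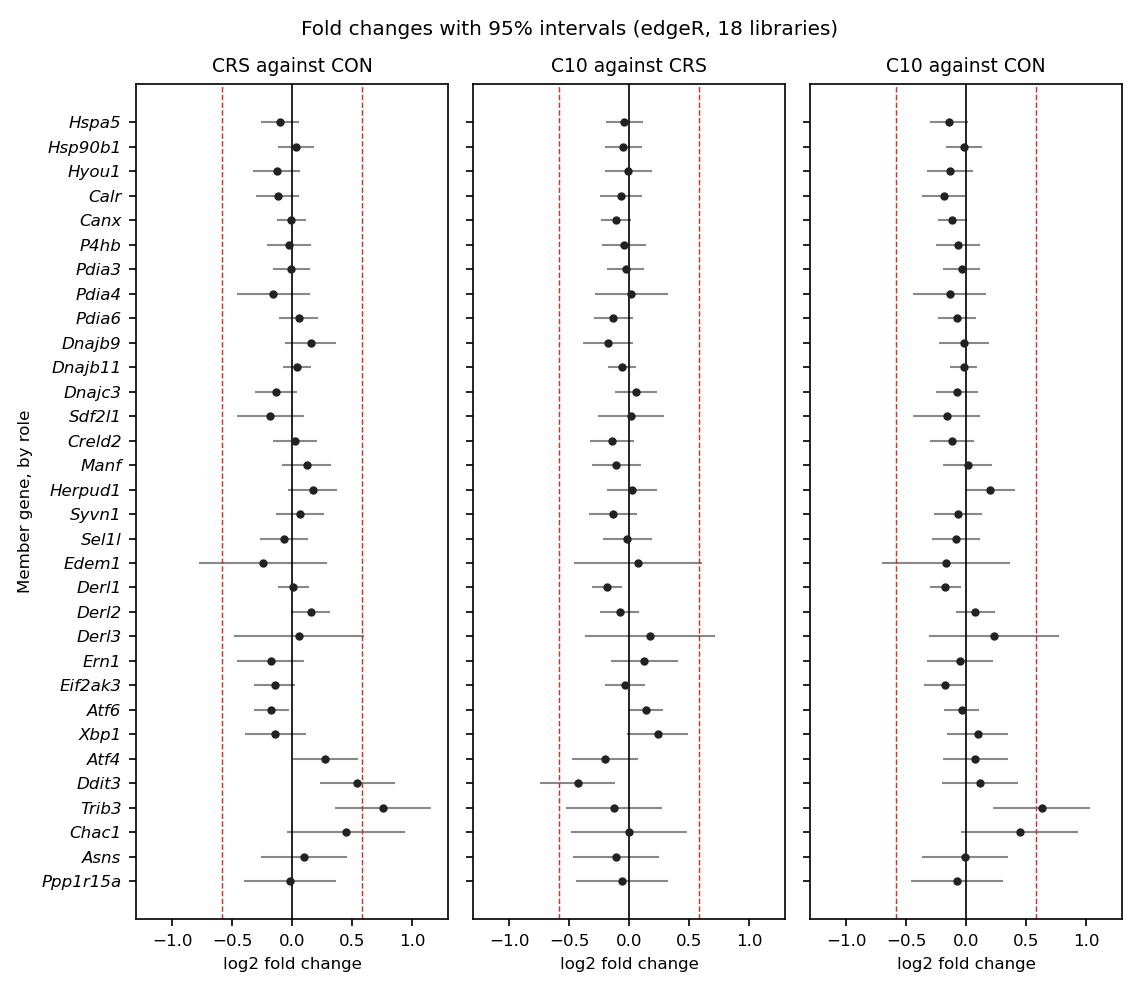
Log2 fold changes of the 32 genes (points) with 95% intervals (lines) in the 3 comparisons, edgeR on 18 libraries; dashed lines mark 1.5-fold in each direction. In CRS against CON, 27 of the 32 intervals lie within those lines, and Trib3 and Ddit3 lie farthest to the right.

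In the comparison of C10 with CON, which shares its libraries with both comparisons above, 0 of the 32 genes passed by edgeR, where 29 genes in all (0.159%) did, and 0 passed with DESeq2 or limma-voom, where 1.77% and 1.38% of all genes did. At an unadjusted p under 0.05, 4 of the 32 (12.5%) were counted, against 13.1% of all genes: Trib3 above CON, and Derl1, Eif2ak3 and Calr below. The median log2 fold change was -0.06, against 0.01 for all genes. Of the 32, 9 genes (28.1%) lay above 0 and 23 below, where 52.6% of all genes lay above 0. The interval lay within 1.5-fold for 28 of the 32, against 55.8% of all genes.

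Trib3 had 10.5, 18.9 and 20.5 CPM in C10 (lowest, median, highest). C10 3 lay inside the CON range and the other 5 libraries lay above it. C10 was 1.55-fold CON (log2 fold change 0.63 ± 0.19, 95% interval 0.23 to 1.03; edgeR adjusted p = 0.187). Derl1 had 110.3 to 127 CPM in CON and 100.1 to 108 CPM in C10, with a log2 fold change of -0.17 ± 0.06 (edgeR adjusted p = 0.240). How many of all genes have ranges that lie apart in this way was not counted. Ddit3 gave 0.12 between C10 and CON, and -0.05 with the olfactory neuron level as a covariate.

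Eif2ak3, the gene of PERK, had 55.1, 61.0 and 64.8 CPM in CON and 46.5, 54.4 and 55.9 CPM in C10, with a log2 fold change of -0.18 ± 0.08 (edgeR adjusted p = 0.344). Calr had 559, 619 and 702 CPM in CON and 531, 537 and 591 CPM in C10, with a log2 fold change of -0.19 ± 0.08 (edgeR adjusted p = 0.345). For both genes all C10 libraries lay under the CON median while the ranges overlapped. Herpud1 had 198, 214 and 240 CPM in CON and 225, 243 and 280 CPM in C10, all above the CON median (log2 fold change 0.20 ± 0.10, edgeR adjusted p = 0.404). Canx gave -0.12 ± 0.06 (edgeR adjusted p = 0.410), with all C10 libraries under the CON median of 358 CPM. The 3 luminal chaperones, the 4 isomerases and the 4 co-chaperones all gave log2 fold changes below 0 in edgeR on all 18 libraries, from -0.16 to -0.02, but Hsp90b1, Pdia3, Pdia4 and Dnajb9 were above 0 in at least 1 alternative fit.

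Several of these genes moved with the level of cell type marker lists across the 18 libraries. Only 3 lists were used, and lists can move together. CON 5, with the lowest olfactory neuron level (7.06 mean log2 CPM), had the highest fibroblast level (7.83). CRS 2 had the highest neuron level (8.77) and the lowest plasma cell level (1.34), but C10 6 had 8.60 and 6.01. A relation with 1 list therefore cannot be told apart from a relation with another. Relations between each of the 32 genes and the mean log2 CPM of the olfactory neuron, nasal gland and plasma cell lists were computed as 1 family of 96, with 100000 permutations and Benjamini-Hochberg adjustment. With the olfactory neuron list, 12 of the 32 (37.5%) had an adjusted permutation p under 0.05, 8 with a negative and 4 with a positive r, down to an r of 0.63 in size, and 28.4% of all genes tested reached that size. With the nasal gland list 3 of the 32 did (9.38%, against 1.14% of all genes at an r of 0.64 in size). With the plasma cell list 1 did (3.12%, against 1.18% of all genes at 0.82). Each size is that of the weakest relation among the 32 genes that passed, for the plasma cell list that of Edem1 itself. The shares of the 32 genes are thus partly fixed by this choice and are a description only. By rho as well as r, 9, 2 and 1 of these relations had an adjusted p under 0.05.

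Pdia4, a disulfide isomerase, had the strongest relation: r = -0.92 and rho = -0.92 with the olfactory neuron list (n = 18, permutation p = 1e-05 for r, the smallest they can give, adjusted p = 0.00048 for both). Without CON 5 and CRS 1, the libraries farthest from the median, r was -0.92, and within groups it was -0.90 in CON, -0.97 in CRS and -0.99 in C10. Edem1 gave r = -0.81 and rho = -0.74 (permutation p = 3e-05, adjusted p = 0.00096 and 0.0132; -0.75 without those libraries), with -0.63 in CON, -0.98 in CRS and -0.80 in C10. Edem1 also had the relation with the plasma cell list: r = 0.82, rho = 0.82 (permutation p = 4e-05, adjusted p = 0.00096 and 0.00416), and r = 0.70 without CRS 2 and CRS 5. Plasma cell markers ran from 1.34 mean log2 CPM in CRS 2 to 6.63 in C10 3 over all 11 genes of the list.

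Hspa5 gave r = -0.74 (permutation p = 0.00047, adjusted p = 0.00902), with -0.90 in CON, -0.85 in CRS and -0.11 in C10, where the relation did not hold (exact permutation p = 0.861). Calr (r = -0.71), Eif2ak3 (-0.68), Derl1 (-0.68), Canx (-0.64) and Ern1 (-0.63) were also negative, with adjusted permutation p from 0.0143 to 0.0301; within C10, Calr and Canx had r of 0.17 and 0.31. By rho, Derl1 and Canx did not pass (adjusted permutation p = 0.0626 and 0.0839), and without CON 5 and CRS 1 their r was -0.49 and -0.40. The same r was -0.59 for Hspa5, -0.54 for Calr, -0.56 for Eif2ak3 and -0.55 for Ern1. For Derl1 the log2 fold change of C10 against CON was -0.12 with the olfactory neuron level as a covariate in edgeR (adjusted p = 0.341), against -0.17 without.

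Trib3 and Ddit3 were positive with the same list. Trib3 gave r = 0.72 and rho = 0.69 (permutation p = 0.00083, adjusted p = 0.0133 and 0.0197), 0.54 without CON 5 and CRS 1, and 0.76, 0.75 and 0.83 within CON, CRS and C10. Ddit3 gave r = 0.65 and rho = 0.66 (permutation p = 0.00349, adjusted p = 0.0279 and 0.0264), 0.67 without those libraries, and 0.82, 0.83 and 0.74 within groups. The olfactory neuron list had medians of 7.95 in CON (range 7.06 to 8.50), 8.32 in CRS (7.48 to 8.77) and 8.38 in C10 (7.82 to 8.68) mean log2 CPM, none of its 12 genes was at 0 in any library, and CRS 1, low in Trib3, had its lowest CRS value. With that level as a covariate in edgeR, CRS against CON gave 0.58 for Trib3 (adjusted p = 0.143) and 0.40 for Ddit3 (adjusted p = 0.155), and C10 against CON gave 0.42 for Trib3 (adjusted p = 0.285). Dnajb9 (r = 0.66) and Ppp1r15a (r = 0.66) completed the positive relations, with adjusted permutation p of 0.0227 and 0.0229. By rho, Ppp1r15a did not pass (adjusted permutation p = 0.0626), and its r without CON 5 and CRS 1 was 0.40, against 0.57 for Dnajb9.

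Asns was higher where the nasal gland list was higher: r = 0.84 and rho = 0.86 (permutation p = 1e-05, adjusted p = 0.00048 for both), 0.91 without CRS 1 and C10 5, and 0.98, 0.87 and 0.86 within CON, CRS and C10. Derl3 gave r = 0.64 and Herpud1 r = 0.65 (adjusted permutation p = 0.0301 for each; for Herpud1 the adjusted p of rho was 0.126). The gland list was highest in CRS 3, where Asns (112 CPM), Derl3 (53.7 CPM) and Herpud1 (319 CPM) also had their highest values of the 18 libraries.

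**Figure D5:**
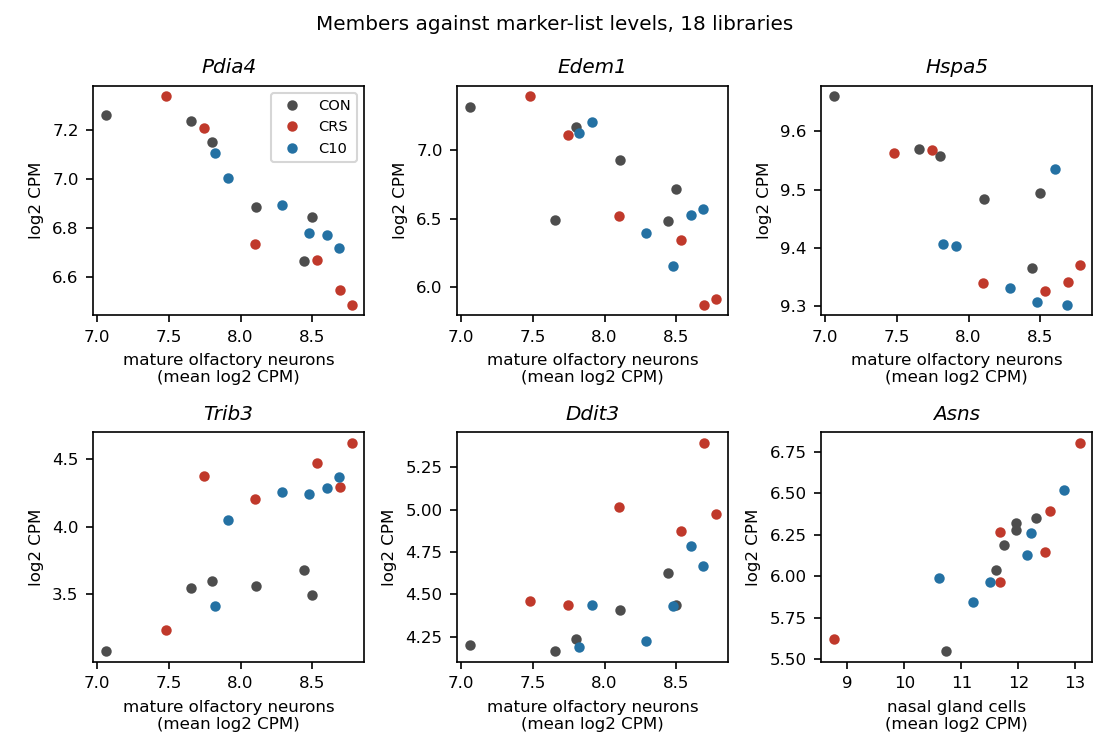
Log2 CPM of 6 genes (y axis) against the mean log2 CPM of a marker list (x axis) in 18 libraries coloured by group. Pdia4 is lower where the olfactory neuron level is higher in all groups (r = -0.92), Trib3 and Ddit3 are higher there, and Asns is higher where the nasal gland level is higher (r = 0.84).

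Other genes of the pathway were described from 5 lists that hold 131 genes tested. By edgeR 0 of the 131 passed in any of the 3 comparisons. At an unadjusted p under 0.05, 13 lay above and 7 below in CRS against CON, 5 above and 14 below in C10 against CRS, and 3 above and 6 below in C10 against CON. These are 15.3%, 14.5% and 6.87% of the 131, against 14.0%, 13.2% and 13.1% of all genes. DESeq2 passed 1, 5 and 0 of them in these comparisons (0.769%, 3.82% and 0%, against 1.08%, 1.91% and 1.77% of all genes), and limma-voom 8, 8 and 0 (6.11%, 6.11% and 0%, against 5.14%, 3.00% and 1.38%). Of the genes named below, Sec61b, Selenok, Ero1l, Mbtps1, Wfs1 and Nupr1 passed in at least 1 alternative fit in CRS against CON. In C10 against CRS, Ssr1, Erp29, Ube2g2, Rnf139, Ern2, Gdf15 and Nupr1 did so. How many of all genes pass in at least 1 of the 30 alternative fits was not counted. The genes named were also picked for their small p, so these passes are a description only.

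Of 26 genes for entry into the ER and glycosylation, 4 lay above and 1 below in CRS at that unadjusted threshold (19.2%, against 14.0% of all genes). Sec61g, a subunit of the channel through which new proteins enter the ER, had 10.3, 18.7 and 26.7 CPM in CON and 23.0, 25.2 and 80.9 CPM in CRS (log2 fold change 0.96 ± 0.30, edgeR adjusted p = 0.227), and Sec61b, another subunit, gave 0.59 ± 0.19 (adjusted p = 0.227). CRS 4 was the highest CRS library for both, and without it the values were 0.50 for Sec61g and 0.37 for Sec61b. The C10 values of smallest p were -0.25 for Ostc and -0.16 for Ssr1 against CRS, and -0.22 for Stt3a and -0.11 for Ssr1 against CON, with edgeR adjusted p from 0.206 to 0.421. In C10 against CRS, 19 of the 26 lay below 0, against 8834 of all 18291 genes.

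Of 23 further folding and oxidation factors, Ero1l, the oxidase that recharges disulfide isomerases, had 43.9, 46.9 and 62.7 CPM in CON and 27.0, 38.1 and 45.5 CPM in CRS (log2 fold change -0.38 ± 0.11, edgeR adjusted p = 0.213), and it gave 0.25 ± 0.11 in C10 against CRS (adjusted p = 0.350), which was 0.15 without CRS 5. Calr3 gave 0.49 in CRS against CON, Erp29 -0.34 in C10 against CRS, and Fkbp14 and Txndc12 -0.33 and -0.16 in C10 against CON, with edgeR adjusted p from 0.191 to 0.404. Of 24 further degradation factors, Selenok gave 0.41 and Ufd1 0.19 in CRS against CON. Ube2g2, a ubiquitin-conjugating enzyme, gave -0.34 in C10 against CRS and -0.22 in C10 against CON, and Rnf139 gave 0.20 and 0.17, with edgeR adjusted p from 0.121 to 0.333 for these 4 genes.

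Of 18 further sensors and transducers, 4 lay below and 1 above in CRS at an unadjusted p under 0.05 (27.8%, against 14.0% of all genes). Mbtps1, the protease that cuts ATF6, gave -0.22 ± 0.07 and Wfs1, a membrane protein of the ER, gave -0.29 ± 0.10 (edgeR adjusted p = 0.227 for each); Wfs1 gave -0.25 in C10 against CON. Ern2, the IRE1 form of mucous epithelium, had 0.363, 1.01 and 1.74 CPM in CRS and 1.08, 3.05 and 3.92 CPM in C10 (log2 fold change 1.45 ± 0.37, edgeR adjusted p = 0.115), all C10 libraries lying above the CRS median. Its lowest levels are near the floor, where 3 counts are 0.163 to 0.193 CPM. Over the alternative fits its log2 fold change ran from 0.50 to 1.68. Ern2 is also on the goblet and mucous cell list, whose mean log2 CPM, Ern2 included, had medians of 6.33 in CRS and 6.75 in C10. Of the 10 tested genes of that list, 5 lay above 0 and 5 below in C10 against CRS, with a median log2 fold change of 0.05. The part of goblet and mucous cells in the result was not tested. Crebrf gave 0.13 in C10 against CRS and Eif2s1 -0.19 in C10 against CON (adjusted p = 0.503 and 0.453), and the value of Crebrf was 0.07 without C10 4.

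Of 40 further targets of ATF4 and CHOP, Nupr1, a small stress-induced protein, had 169, 191 and 220.1 CPM in CON, 198, 268 and 521 CPM in CRS and 176, 193 and 227 CPM in C10. Every CRS library exceeded the CON median, and every C10 library lay under the CRS median. Its log2 fold changes were 0.62 ± 0.17 in CRS against CON and -0.60 ± 0.17 in C10 against CRS (edgeR adjusted p = 0.209 and 0.152). Without CRS 4, the highest library, they were 0.39 and -0.38. Ddit4, an inhibitor of mTOR signalling, gave 0.43 ± 0.14 in CRS against CON (adjusted p = 0.227), and 0.24 without CRS 4. Gdf15, a secreted stress cytokine, had 1.79, 3.79 and 5.99 CPM in CRS and 0.334, 0.624 and 2.29 CPM in C10, with log2 fold changes of -2.16 ± 0.48 against CRS and -1.42 ± 0.48 against CON (edgeR adjusted p = 0.101 and 0.223); at these levels 3 counts are 0.163 to 0.193 CPM. Tnfrsf10b, a death receptor gene under CHOP, gave -0.61 ± 0.22 in C10 against CON (adjusted p = 0.262). Over the 40 genes the median log2 fold changes were -0.01, 0.00 and -0.01 in the 3 comparisons.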

How the data were processed

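Nasal mucosa RNA of 18 libraries (6 each in CON, CRS and C10) was poly(A)-selected per the labels' protocols, with a kit not stated to keep strand. The authors' deposited tables hold raw counts and FPKM per gene, with 1 column per library and 0 columns unmatched. The genome build is mm10 per the submitters' processing notes; tools for alignment and counting and the annotation were not given in the sources used here. Within a library, deposited FPKM times gene length over count is a constant, so the FPKM come from these counts. FPKM served for levels between genes and as an alternative.

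Counts were analysed in R 4.3.3 with edgeR 4.0.16: filterByExpr by group kept 18291 genes, followed by TMM factors and two-sided quasi-likelihood F-tests on all 18 libraries with 1 mean per group. Benjamini-Hochberg adjusted p under 0.05 is the threshold. The common biological coefficient of variation was 0.264. SEs were derived from each fold change and its F statistic. CPM use TMM-scaled library sizes, and mean log2 CPM use a prior count of 2. A floor of 3 counts is 0.163 to 0.193 CPM and covers counting error only. Over 153 pairs of libraries, chi-square per degree of freedom was at least 14.1, so no library was a repeat count of another. Scripts for the tests and relations were tested on simulated data.

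The genes and lists were chosen with earlier results of these data known, and the relations with marker lists were added after seeing the data. Named were the 6 genes of smallest p per comparison, any called, and the 2 of smallest p per pathway list. Of the 32 genes, 14 overlap another gene and 7 a protein-coding one (Pdia3, Pdia6, Manf, Syvn1, Derl2, Ddit3, Ppp1r15a), whose counts cannot be separated without strand. Alternatives were RLE factors, DESeq2 1.42.0, limma-voom (3.58.1) with quality weights, no filter on low counts, a filter of 1 CPM in at least 6 libraries (the stricter filter), the 2 groups compared alone, a replicate block, nasal gland or olfactory neuron level as covariate, limma on log2 of FPKM plus 1 or 0.1, and leaving out each library or CRS 2 and CRS 5. Relations and sequence matches used Python 3.11.15 with numpy 2.4.6 and pandas 2.3.3, and promoter windows are from RefSeq, GRCm38.p6.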

Additional observations from a re-analysis of the deposited data

Results flagged for a closer look

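In 12 of 96 groups (32 genes in 3 groups of 6 libraries) the highest or lowest library lay apart from the other 5. Its gap to the nearest was above 0.625 of the group's range. For normal values chance flags about 1 in 20 groups, which is 4.8 of 96. The genes share the same 18 libraries, so the groups are not independent and these counts are not a test. Of high values, Derl3 had 53.7 CPM in CRS 3 against 17.5 to 28.6 in the rest of CRS, Xbp1 had 546 CPM in CON 3 against 372 to 410.0, and Chac1 had 6.45 CPM in C10 6 against 3.30 to 4.28. Pdia6 had 264 CPM in C10 6 against 211 to 226, Derl1 had 108 CPM in C10 1 against 100.1 to 102, and Dnajc3 had 293 CPM in CON 5 against 258 to 269. Of low values, Trib3 had 8.34 CPM in CON 5 against 11.1 to 12.7, Hyou1 had 127 CPM in CRS 4 against 174 to 202, and Dnajc3 had 217 CPM in C10 5 against 257 to 271. Derl2 had 44.7 CPM in CRS 1 against 57.3 to 64.1 and 47.1 CPM in C10 2 against 53.4 to 56.9, and Syvn1 had 59.3 CPM in CON 1 against 71.5 to 77.8.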

How the results depend on the processing

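In 30 alternative fits, 18 of which left out 1 library, no direction turned for the genes of smallest p in the comparison that named them. Over all 96 values of the 32 genes in the 3 comparisons, 37 turned in at least 1 fit, the largest of them -0.25 (Edem1, CRS against CON). The count of the 32 genes called in CRS against CON (0) was 2 with DESeq2 and 2 with limma-voom, and 0 to 2 without each library, 2 only without CRS replicate 1; in C10 against CRS (0) it was 1 with limma-voom and 1 with the olfactory neuron covariate. Other pathway genes called numbered 1 with DESeq2, 8 with limma-voom and 0 to 6 without each library in CRS against CON (6 without CRS 1), and 5 with DESeq2, 8 with limma-voom, 5 with the olfactory neuron covariate, 1 without CRS 2 and CRS 5 and 0 to 1 without each library in C10 against CRS. Medians of the 32 genes moved by less than their SD within groups (0.088), which is larger in size than each median of edgeR on all 18 libraries. In CRS against CON the median ran from -0.03 to 0.04 over the alternative fits, so its sign changed. It ran from -0.10 to -0.03 in C10 against CRS and from -0.07 to -0.03 in C10 against CON.

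Genes called in all numbered 1 in CRS against CON, and 179 with DESeq2, 940 with limma-voom, 3 with the stricter filter, 0 with the 2 groups alone, 3 and 2 with the gland and neuron covariates, 2 on either FPKM scale, and 0 to 994 without each library (994 without CRS 1). They numbered 15 in C10 against CRS, and 350 with DESeq2, 548 with limma-voom, 23 with the stricter filter, 9 with the 2 groups alone, 504 with the neuron covariate, 23 on log2 of FPKM plus 1, 100 without CRS 2 and CRS 5, and 7 to 81 without each library (81 without CRS 2). They numbered 29 in C10 against CON, and 318 with DESeq2, 252 with limma-voom, 17 with no filter, 161 with the 2 groups alone, 49 and 103 with the gland and neuron covariates, 74 without CRS 2 and CRS 5, and 3 to 110 without each library (3 without C10 4, 110 without CRS 1).

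Libraries of the same number deviated together in 8 of 18 pairs (r over 0.1, range -0.57 to 0.52, median -0.02). Libraries of different numbers did so in 30 of 90 pairs (range -0.55 to 0.55, median -0.01). Libraries also differ in composition, so these values cannot decide whether the numbers pair them. With the replicate block 0 of the 32 genes were called in each comparison, and genes called in all numbered 0 in CRS against CON and 12 in C10 against CON. The 95% interval of the fold change reached beyond 1.5-fold for 5, 3 and 4 of the 32 genes in the 3 comparisons. At this depth 3 counts are 0.163 to 0.193 CPM, and the lowest value of the 32 genes was 1.93 CPM (Chac1).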
